A study of Homo sapiens with 4 samples.

Results

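The genes described here act in homologous recombination and in the Fanconi anemia pathway. They were taken by name, as members of these pathways and the checkpoint kinases that act with them, and the set was drawn up with earlier results of these data known. All 39 were found among the 16490 genes of the table, where they are listed in 85 RefSeq rows (1 row per transcript) of 28581 with values. RNA-seq of MV4-11 cells, a human acute myeloid leukemia line, gave 2 libraries of control cells carrying the hairpin sh-NC and 2 libraries of CEBPG knockdown cells carrying sh-CEBPG#3. The CEBPG hairpin was carried by a pLKO.1-puro lentivirus, and stable lines were selected with puromycin, while the vector of sh-NC is not given in the sources used here. A single CEBPG hairpin was sequenced, and the sources used here do not give whether each library had its own infection, so p-values measure the spread between these libraries, which may be technical.

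Homologous recombination repairs a broken chromosome by copying the sister chromatid, and is therefore used in S and G2 phase. The broken end is first cut back to a single strand, the BRCA proteins and their partners then prepare it to invade the sister, and helicases and nucleases finally take the joined molecules apart. The Fanconi proteins unhook crosslinked DNA strands at stalled replication forks and hand the resulting break to this pathway. Inherited loss of Fanconi genes is known for bone marrow failure and for a high risk of acute myeloid leukemia.

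The values are FPKM (fragments scaled by transcript length and by the number of mapped fragments), summed over the rows of each gene. Totals were between 364354 and 389766 FPKM per library, and the depth is unknown because FPKM values carry no counts. CEBPG, which the hairpin targets, was at 30.4 and 33.6 FPKM in control cells against 19.2 and 17.1 FPKM in knockdown cells (log2 fold change -0.78, standard error 0.09, adjusted p = 8.88e-05 in limma). Of 8 myeloid marker genes all were measured, with a summed level of 892 to 970 FPKM in sh-NC cells and 3373 to 3547 FPKM in sh-CEBPG#3 cells. LYZ, a lysozyme of mature myeloid cells, made up most of that increase, MPO, CD33 and SPI1 also rose, and MEIS1 (-0.87) and HOXA9 (-0.36), factors of the immature leukemic state, fell. The summed level of the 2 B cell markers in the table was at most 1.52 FPKM, that of the fibroblast marker COL1A1 at most 0.0781 FPKM, and that of the epithelial keratins KRT8 and KRT18 between 12.1 and 16.0 FPKM, of which KRT8 rose (1.12, adjusted p = 1.55e-05) and KRT18 was not called, while the listed markers of T cells and erythroid cells were not analysed here.

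Of the 39 repair genes, 25 fell upon CEBPG knockdown at an adjusted p under 0.05 in limma, and none rose. Among all 12142 genes tested, 23.8% were called lower and 18.5% higher. With the most abundant row of each gene in place of the sum, 12 of the 39 were called lower, and 18 without the filter on low values. Calls over all genes dropped as well, to 1535 and 2232 lower against 2884, in fits that test other numbers of genes. The median log2 fold change of the 39 genes was -0.32 (-0.49 with a pseudocount of 0.1 FPKM), against -0.04 over all genes tested (-0.05), and the level that remained in sh-CEBPG#3 cells ran from 48.7% of the control for XRCC2 to 114% for RAD52, with a median of 70.9%. In 32 of the 39 genes both sh-CEBPG#3 libraries lay below both sh-NC libraries, where 40.2% of all genes tested did so. MUS81 was the 1 gene whose sh-CEBPG#3 libraries both lay above the sh-NC libraries (31.5% of all genes tested), and the groups overlapped in 6 genes. At an unadjusted p under 0.05, 27 genes were lower (28.5% of all genes tested) and 0 higher. The study's own threshold asks for a log2 fold change beyond 1 in either direction at that p, and the study set it on DESeq2 results. Here it was applied to limma fold changes with the pseudocount of 1 FPKM, a different measure, so the DESeq2 calls of these genes remain unknown. None of the 39 genes passed it in this form, whereas 1.05% of all genes tested passed it as lower and 2.36% as higher. XRCC2 alone passed it with a pseudocount of 0.1 FPKM (-1.01, where 2.78% of all genes tested passed as lower) or 0.01 FPKM (-1.03, 3.07%). Fold changes are on the log2(FPKM + 1) scale, which understates the change of genes with low values. In bulk RNA, fewer cells of a kind (such as cells in S phase) and less RNA per cell cannot be told apart.

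**Figure D1:**
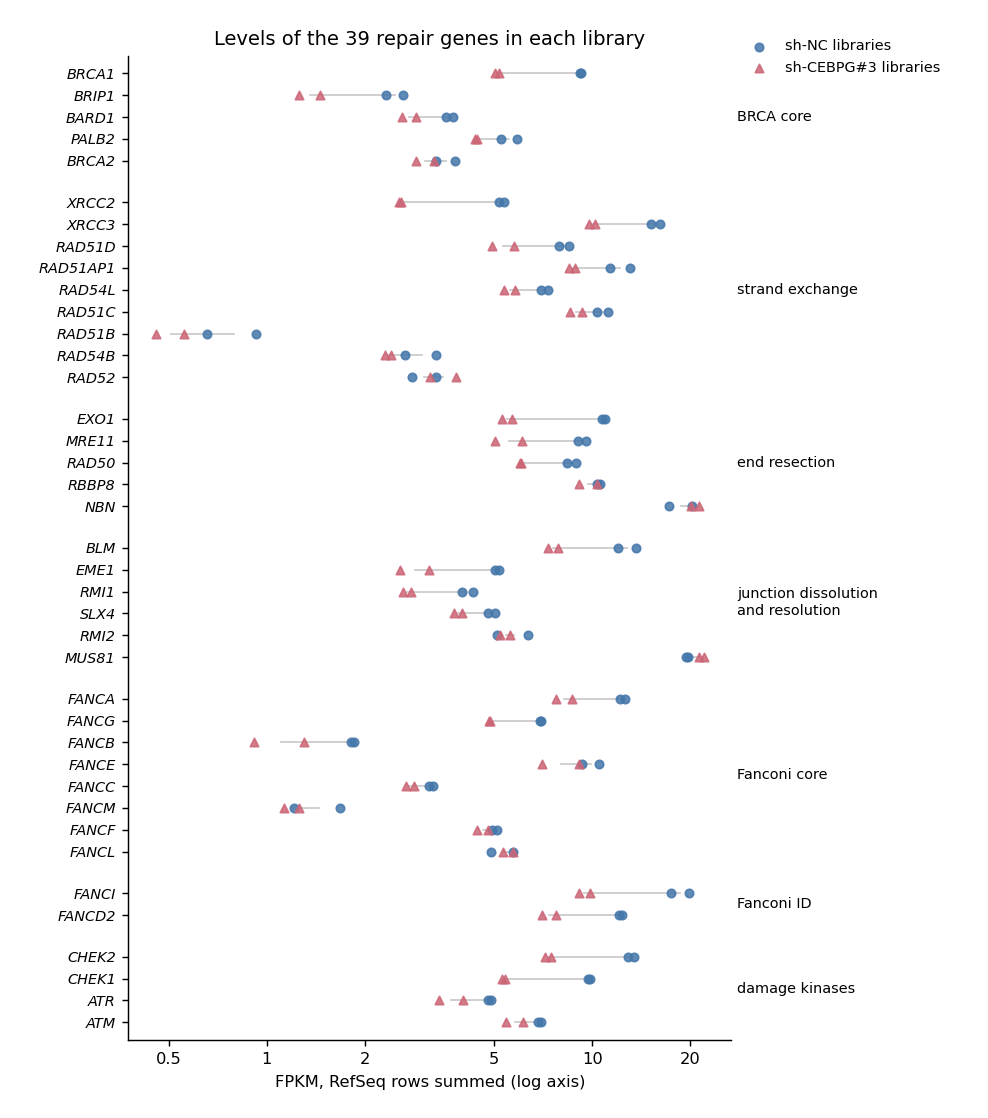
Level of each of the 39 repair genes in each library, in FPKM on a log axis, grouped by role, with circles for the 2 sh-NC libraries, triangles for the 2 sh-CEBPG#3 libraries and a grey line between the group means. In 32 genes both triangles lie left of both circles, in MUS81 they lie right of them, and in 6 genes the groups overlap.

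The 8 genes with the largest decreases were FANCI, EXO1, XRCC2, CHEK2, CHEK1, BRCA1, BLM and FANCD2, which belong to 6 of the 7 role groups used below. Since these genes moved together, the letters of their promoters were read from RefSeq (GRCh38.p14), in windows from 250 bases before to 50 bases after each start. Windows matched 35 of the 39 genes (48 windows), and RAD54B, NBN, RMI2 and FANCI had no entry. A gene counted as having a motif if any of its windows held it, so shares of genes are unlike shares of all windows. The E2F consensus, the binding letters of the factors that drive S phase genes, was searched on both strands as TTTCCCGC, TTTCGCGC, TTTGCCGC or TTTGGCGC. It was found in 6 of the 35 genes (17.1%), EXO1, FANCA, FANCC, FANCD2, RMI1 and XRCC2, against 6.98% of the genes tested that have a window and 3.31% of all windows. Of these 6 genes, 5 fell and FANCC was not called. Most genes with a window fell in any case, so the consensus was in 5 of the 24 called lower and in 1 of the 11 others. A link between the consensus and the decrease was not tested. The CCAAT box (CCAAT, both strands) was found in 16 of the 35 genes (45.7%), close to the 43.3% of genes tested (34.6% of all windows). The CHR element (TTTGAA, both strands), found at many genes of the late cell cycle, was in 3 genes (8.57%, against 13.4% of genes tested and 15.2% of all windows). The C/EBP palindrome TTGCGCAA was in 0 of the 35, against 0.316% of genes tested and 0.151% of all windows. No match of one of these motifs overlapped a match of another, and a match describes letters only, not a bound site. Of the 8 genes with the largest decreases, FANCI could not be searched. In EXO1, FANCD2 and XRCC2 the E2F consensus lay within 30 bases of the start of a window's transcript. For EXO1 that start lies downstream of the first base of the gene (241847986). These 3 were picked after the matches were seen. The share of all genes with a match this near the start was not computed. Their stretches from 180 bases before to 30 after that transcript start are shown with the consensus in capitals. The EXO1 stretch is chr1:241848024-241848233 on the plus strand, FANCD2 is chr3:10026257-10026466 on the plus strand, and XRCC2 is chr7:152676112-152676321 on the minus strand, each read 5′ to 3′ along the gene.
EXO1: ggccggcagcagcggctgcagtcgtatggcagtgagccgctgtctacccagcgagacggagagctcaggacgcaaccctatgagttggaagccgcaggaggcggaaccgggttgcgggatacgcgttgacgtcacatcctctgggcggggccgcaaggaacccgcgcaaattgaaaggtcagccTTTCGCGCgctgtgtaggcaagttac
FANCD2: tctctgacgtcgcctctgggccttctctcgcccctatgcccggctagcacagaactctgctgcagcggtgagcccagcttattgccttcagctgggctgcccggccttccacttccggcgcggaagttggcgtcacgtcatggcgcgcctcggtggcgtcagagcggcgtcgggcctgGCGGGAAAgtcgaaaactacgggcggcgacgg
XRCC2: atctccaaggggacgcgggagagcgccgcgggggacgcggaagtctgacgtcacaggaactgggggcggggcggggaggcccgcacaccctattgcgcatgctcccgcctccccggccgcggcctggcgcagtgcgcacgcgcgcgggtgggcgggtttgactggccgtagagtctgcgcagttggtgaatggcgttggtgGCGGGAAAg

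The end resection genes prepare a break for recombination, and 3 of the 5 fell while none rose. The background for this and the following role groups is the 23.8% of all genes tested called lower and 18.5% called higher. EXO1 (chromosome 1, 241847986 to 241889939), the exonuclease that extends the resected end, had 10.7 and 10.9 FPKM in control cells and 5.28 and 5.65 FPKM in knockdown cells. The means were 10.8 ± 0.161 and 5.46 ± 0.263 FPKM (SD, n = 2 each), with a log2 fold change of -0.87 (standard error 0.09, adjusted p = 4.45e-05), and the groups were far apart against their spread. MRE11 and RAD50 encode the nuclease and the ATPase of the MRN complex, which detects the break. MRE11 went from 9.06 and 9.56 FPKM to 6.10 and 5.01 FPKM (log2 fold change -0.66, adjusted p = 0.000689, with -0.46 and an adjusted p = 0.0595 for its most abundant row), and RAD50 from 8.36 and 8.91 FPKM to 5.98 and 6.02 FPKM (-0.46, adjusted p = 0.00234). NBN, the remaining MRN subunit, was not called, with 17.2 and 20.2 FPKM in sh-NC cells and 21.3 and 20.1 FPKM in sh-CEBPG#3 cells. Its log2 fold change was 0.15, with a 95% interval of ± 0.20 and overlapping groups. Without sh-NC replicate 2, NBN passed as higher (0.26, adjusted p = 0.0379). RBBP8, the CtIP protein that starts resection together with MRN, also overlapped between the groups, with 10.5 and 10.3 FPKM against 10.4 and 9.11 FPKM (-0.09, 95% interval ± 0.20).

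The BRCA core prepares the resected end for strand exchange, and 4 of its 5 genes fell. BRCA1 (chromosome 17, 43044295 to 43170327), the ubiquitin ligase that commits a break to recombination, had 9.17 and 9.21 FPKM in control cells and 5.15 and 5.03 FPKM in knockdown cells. Its means were 9.19 ± 0.0296 and 5.09 ± 0.0845 FPKM (SD, n = 2 each), with a log2 fold change of -0.74 (standard error 0.09, adjusted p = 0.000119), with little spread within either group. Its most abundant row alone was not called (-0.45, adjusted p = 0.0753). BRIP1, a helicase that binds BRCA1, fell from 2.32 and 2.62 FPKM to 1.45 and 1.26 FPKM (-0.56, adjusted p = 0.00411). BARD1, the obligate partner of BRCA1, fell from 3.54 and 3.74 FPKM to 2.87 and 2.59 FPKM (-0.32, adjusted p = 0.0339). PALB2, which joins BRCA1 to BRCA2, went from 5.26 and 5.85 FPKM to 4.37 and 4.43 FPKM (-0.28, adjusted p = 0.0418). BRCA2, known for inherited breast cancer risk, was not called, with 3.78 and 3.32 FPKM against 3.26 and 2.87 FPKM (-0.16, 95% interval ± 0.24), although both sh-CEBPG#3 libraries lay below both sh-NC libraries. The call of BARD1 was lost without sh-NC replicate 1 (adjusted p = 0.0622), sh-NC replicate 2 (adjusted p = 0.140) or sh-CEBPG#3 replicate 2 (adjusted p = 0.136). That of PALB2 was lost without sh-NC replicate 2 (adjusted p = 0.240), sh-CEBPG#3 replicate 1 (adjusted p = 0.110) or sh-CEBPG#3 replicate 2 (adjusted p = 0.0964).

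Among the genes of strand exchange, in which the resected end invades the sister chromatid, 6 of 9 fell and none rose. XRCC2 (chromosome 7, 152644776 to 152676141), whose start is shown above, had 5.16 and 5.36 FPKM in sh-NC cells and 2.54 and 2.58 FPKM in sh-CEBPG#3 cells. Its means were 5.26 ± 0.141 and 2.56 ± 0.0265 FPKM (SD, n = 2 each), with a log2 fold change of -0.81 (standard error 0.10, adjusted p = 0.00014). By the share of the control level that remained, this was the largest decrease of all 39 genes. RAD51D, which pairs with XRCC2, fell from 8.48 and 7.91 FPKM to 4.92 and 5.73 FPKM (-0.54, adjusted p = 0.00175). XRCC3, from a separate complex of this group, fell from 16.2 and 15.1 FPKM to 10.2 and 9.77 FPKM (-0.60, adjusted p = 0.000339), while its partner RAD51C went from 10.4 and 11.2 FPKM to 8.54 and 9.28 FPKM (-0.25, adjusted p = 0.0464). RAD51B had the lowest level of the 39 genes, 0.926 and 0.654 FPKM against 0.456 and 0.558 FPKM, and was not called. RAD51AP1, which stimulates strand invasion, fell from 11.3 and 13.1 FPKM to 8.45 and 8.86 FPKM (-0.45, adjusted p = 0.00357). RAD54L, a motor protein of strand exchange, fell from 6.98 and 7.33 FPKM to 5.80 and 5.34 FPKM (-0.31, adjusted p = 0.0204). Its relative RAD54B was not called (-0.24, 95% interval ± 0.26), nor was the annealing factor RAD52, which had 2.80 and 3.30 FPKM against 3.80 and 3.16 FPKM (0.15, 95% interval ± 0.26). With the most abundant row, XRCC3 (-0.20, adjusted p = 0.472), RAD51D (-0.29, adjusted p = 0.281) and RAD51AP1 (-0.30, adjusted p = 0.233) were not called. RAD51C did not pass without sh-NC replicate 2 (adjusted p = 0.195), sh-CEBPG#3 replicate 1 (adjusted p = 0.218) or sh-CEBPG#3 replicate 2 (adjusted p = 0.065), nor RAD54L without sh-NC replicate 2 (adjusted p = 0.0839) or sh-CEBPG#3 replicate 2 (adjusted p = 0.106).

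Genes that dissolve or cut the joined molecules fell in 4 of 6 cases. BLM (chromosome 15, 90717346 to 90816166), the helicase lost in Bloom syndrome, had 12.0 and 13.6 FPKM in sh-NC cells and 7.84 and 7.30 FPKM in sh-CEBPG#3 cells. Its means were 12.8 ± 1.13 and 7.57 ± 0.379 FPKM (SD, n = 2 each), with a log2 fold change of -0.69 (standard error 0.09, adjusted p = 0.000285). RMI1, which works with BLM, fell from 3.98 and 4.29 FPKM to 2.77 and 2.62 FPKM (-0.47, adjusted p = 0.00436). RMI2, a small partner of both, overlapped between the groups, with 5.11 and 6.37 FPKM against 5.60 and 5.22 FPKM (-0.07, 95% interval ± 0.25). MUS81 and EME1 together form a nuclease. EME1 fell from 5.01 and 5.17 FPKM to 3.15 and 2.56 FPKM (-0.66, adjusted p = 0.000925), whereas MUS81 had 19.7 and 19.4 FPKM against 22.002 and 21.3 FPKM (0.14, adjusted p = 0.164). SLX4, the scaffold that holds MUS81-EME1, went from 5.01 and 4.78 FPKM to 3.99 and 3.75 FPKM (-0.27, adjusted p = 0.0431). The call of SLX4 was lost whichever library was left out, at an adjusted p = 0.174 without sh-NC replicate 1, 0.0852 without sh-NC replicate 2, 0.067 without sh-CEBPG#3 replicate 1 and 0.153 without sh-CEBPG#3 replicate 2.

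The Fanconi core complex is the ubiquitin ligase that switches the pathway on, and here 3 of 8 genes fell. This was 37.5%, against 23.8% of all genes tested, and the smallest share of the 7 role groups. Whether this share differs from that of all genes was not tested. FANCA fell from 12.6 and 12.2 FPKM to 8.67 and 7.75 FPKM (-0.55, adjusted p = 0.000886). FANCG, which binds FANCA, fell from 6.91 and 6.96 FPKM to 4.82 and 4.84 FPKM (-0.44, adjusted p = 0.00308). FANCB, which helps the catalytic subunit, fell from 1.85 and 1.82 FPKM to 1.30 and 0.910 FPKM (-0.43, adjusted p = 0.0242), and did not pass without sh-CEBPG#3 replicate 2 (adjusted p = 0.133). FANCL, the catalytic subunit, had 4.89 and 5.72 FPKM in sh-NC cells and 5.72 and 5.31 FPKM in sh-CEBPG#3 cells (0.05, 95% interval ± 0.23). FANCE went from 9.27 and 10.5 FPKM to 9.08 and 6.999 FPKM (-0.28, adjusted p = 0.086), and passed without sh-NC replicate 1 (adjusted p = 0.0129) or sh-CEBPG#3 replicate 1 (adjusted p = 0.0146). The log2 fold changes were -0.16 for FANCC, -0.10 for FANCF and -0.15 for FANCM, the DNA translocase that anchors the complex, and none of these 3 was called.

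The core complex acts on FANCD2 and FANCI, which form the clamp known as the ID complex, and both fell. FANCI (chromosome 15, 89243979 to 89317259) had 17.5 and 19.8 FPKM in control cells and 9.83 and 9.08 FPKM in knockdown cells. Its means were 18.7 ± 1.65 and 9.46 ± 0.533 FPKM (SD, n = 2 each), and its log2 fold change of -0.91 (standard error 0.09, adjusted p = 4.25e-05) was the largest of the 39. FANCD2 (chromosome 3, 10026437 to 10101932) had 12.1 and 12.4 FPKM against 7.73 and 6.98 FPKM. The means were 12.2 ± 0.208 and 7.36 ± 0.532 FPKM (SD, n = 2 each), with a log2 fold change of -0.66 (standard error 0.09, adjusted p = 0.000252).

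Of the 4 damage kinases, which signal the lesion and halt the cell cycle, 3 fell. CHEK2 (chromosome 22, 28687742 to 28741834), the effector kinase below ATM, had 12.9 and 13.4 FPKM in sh-NC cells and 7.49 and 7.15 FPKM in sh-CEBPG#3 cells. Its means were 13.1 ± 0.389 and 7.32 ± 0.238 FPKM (SD, n = 2 each), with a log2 fold change of -0.77 (standard error 0.08, adjusted p = 8.02e-05). CHEK1 (chromosome 11, 125625136 to 125681124), the effector kinase below ATR, had 9.83 and 9.71 FPKM against 5.29 and 5.41 FPKM. The means were 9.77 ± 0.0858 and 5.35 ± 0.0823 FPKM (SD, n = 2 each), with a log2 fold change of -0.76 (standard error 0.09, adjusted p = 9.6e-05), and its most abundant row alone was not called (-0.58, adjusted p = 0.28). The estimates of the upstream kinases were smaller. ATR, which responds to stalled forks, went from 4.78 and 4.87 FPKM to 3.99 and 3.39 FPKM (-0.32, adjusted p = 0.0327), and ATM, which responds to breaks, from 6.83 and 6.95 FPKM to 6.12 and 5.43 FPKM (-0.22, adjusted p = 0.0854, not called). With libraries scaled to equal totals ATM was called lower (-0.24, adjusted p = 0.0367). The call of ATR was lost without sh-NC replicate 1 (adjusted p = 0.063), sh-NC replicate 2 (adjusted p = 0.0868) or sh-CEBPG#3 replicate 2 (adjusted p = 0.18).

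**Figure D2:**
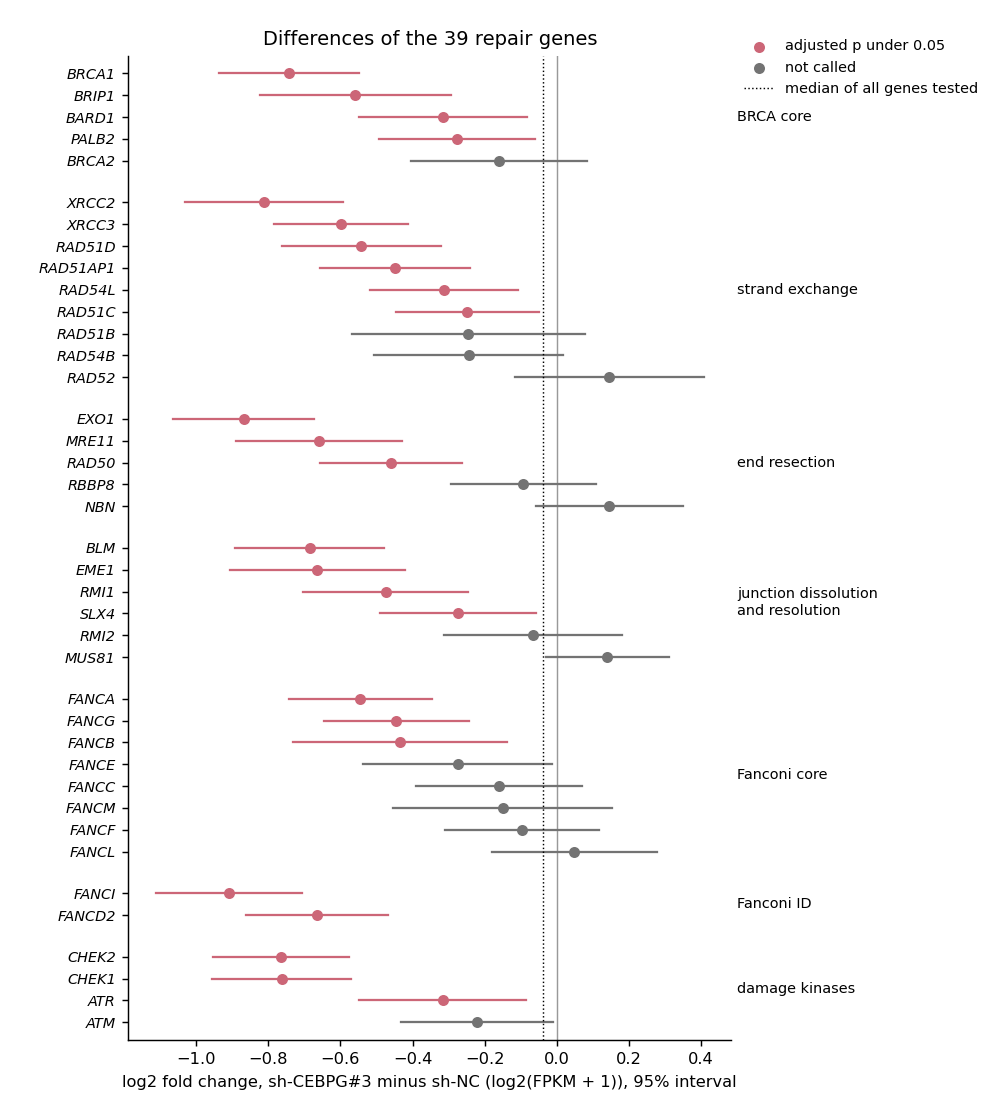
Log2 fold change (sh-CEBPG#3 minus sh-NC, on log2(FPKM + 1)) of the 39 repair genes with its 95% interval from limma, grouped by role and sorted within each group. The 25 genes called lower are red, the 14 others grey, and the dotted line marks the median of all genes tested, -0.04.

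Between partner genes, the ratio of levels separated the 2 groups in most of the 13 pairs compared. How often this holds for other pairs of genes was not computed. Among single genes tested, both knockdown libraries lay below both controls in 40.2% and above both in 31.5%. The 13 pairs compared were chosen after the values of the genes were seen, and the smallest two-sided p of an exact permutation of 2 against 2 libraries is 0.333, so the ratios are a description. NBN per RAD50 was 2.06 and 2.27 in control cells and 3.56 and 3.35 in knockdown cells, while MRE11 per RAD50 was 1.08 and 1.07 against 1.02 and 0.832. MUS81 per EME1 went from 3.93 and 3.76 to 6.99 and 8.33, the widest shift of the 13 pairs. BLM per RMI2 went from 2.35 and 2.14 to 1.40 and 1.40, but BLM per RMI1 only from 3.01 and 3.17 to 2.83 and 2.79. BRCA1 per BARD1 was 2.59 and 2.46 against 1.80 and 1.94. The ratio of effector to upstream kinase was lower in both knockdown libraries, with CHEK1 per ATR at 2.06 and 1.99 against 1.32 and 1.60, and CHEK2 per ATM at 1.88 and 1.93 against 1.22 and 1.32. FANCA per FANCG overlapped between the groups, at 1.83 and 1.75 against 1.80 and 1.60, and so did PALB2 per BRCA2, at 1.39 and 1.76 against 1.34 and 1.54.

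**Figure D3:**
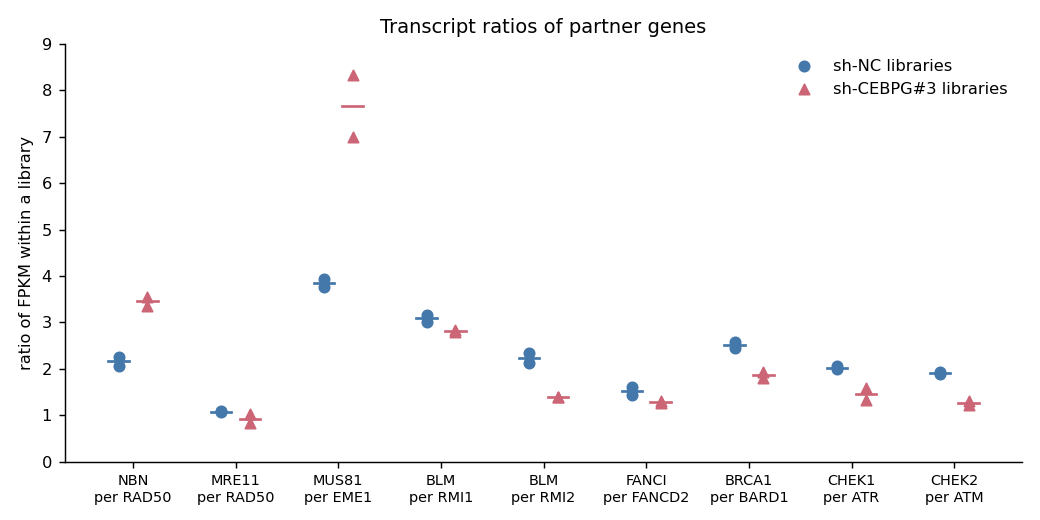
Ratio of the FPKM values of 9 pairs of partner genes within each library, with circles for the 2 sh-NC libraries, triangles for the 2 sh-CEBPG#3 libraries and a bar at each group mean. MUS81 per EME1 and NBN per RAD50 are higher in both sh-CEBPG#3 libraries, and the other 7 pairs are lower in both. Of the pairs not shown, FANCA per FANCG and PALB2 per BRCA2 overlap between the groups, and XRCC3 per RAD51C and XRCC2 per RAD51D are lower in both.

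The table splits 25 of the 39 genes over several RefSeq rows (up to 5), and 14 have a single row. Of the 65 rows with a mean of at least 0.5 FPKM, 7 were called lower (10.8%, against 4.08% of all rows tested) and 0 higher (4.16% of all rows tested). These were the leading rows of CHEK2 (NM_007194), EXO1 (NM_130398), FANCA (NM_000135), FANCD2 (NM_001018115) and FANCI (NM_001113378), the single row of XRCC2 (NM_005431), and the row NM_005432 of XRCC3. No gene had rows called in opposite directions. The rows described next were chosen after their values were seen. XRCC3 row NM_005432 fell from 5.19 and 6.02 FPKM to 1.81 and 0.799 FPKM (-1.55, adjusted p = 0.0477), while its most abundant row NM_001100118 had 8.26 and 5.74 FPKM against 6.48 and 5.32 FPKM (-0.20, not called). In BLM, row NM_001287246 had 1.21 and 2.41 FPKM in sh-NC cells and is listed at 0 and at 0.0305 FPKM in sh-CEBPG#3 cells, and the main row NM_000057 had 10.7 and 11.1 FPKM against 7.84 and 7.19 FPKM. In RBBP8 the rows traded places within the sh-CEBPG#3 group. NM_203291 had 4.69 and 1.80 FPKM there and NM_002894 had 4.44 and 7.21 FPKM, so the summed level was steadier than either row. The same held for CHEK1, whose row NM_001114122 had 2.83 and 4.87 FPKM in sh-NC cells and 3.26 and 1.37 FPKM in sh-CEBPG#3 cells. Reads of CHEK2, FANCD2 and BRCA1 can be shared with pseudogene copies, and how such reads were assigned is not given in the sources used here.

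Other genes of the same pathways were read from lists, beside the 23.8% of all genes tested that were called lower and the 18.5% called higher. Of 42 further recombination and Fanconi genes, 19 fell and 1 rose, with a median log2 fold change of -0.27. MCM8, a helicase of recombination, fell from 7.97 and 8.71 FPKM to 3.53 and 2.87 FPKM (-1.16, adjusted p = 2.5e-05), a larger estimate than that of any of the 39 genes. SEM1, the small cofactor of BRCA2, fell by 0.63 on the log2 scale, and the deubiquitinase BRCC3 fell by 0.62. WDR48, a cofactor of the enzyme that resets FANCD2 and FANCI, rose (0.24, adjusted p = 0.0496). Of 20 damage signalling genes, 12 fell and 2 rose. TIMELESS (-1.20), its partner TIPIN (-1.01) and the ATR activator TOPBP1 (-0.71) fell, and CDKN1A, the p21 inhibitor of cyclin-dependent kinases, rose from 169 and 179 FPKM to 342 and 326 FPKM (0.94, adjusted p = 5.91e-06).

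Genes of S phase and proliferation moved with the repair genes. Of 35 on the list, 32 fell and 0 rose, with a median log2 fold change of -0.70 and 59.8% of the control level remaining at the median. MCM4 had 77.2 and 79.1 FPKM in sh-NC cells and 38.0 and 36.8 FPKM in sh-CEBPG#3 cells (-1.04), and the replicative helicase subunits MCM3 (-0.995) and MCM6 (-1.15) and the cell cycle factor MYBL2 (-1.11) fell likewise. RRM2, CCNE2 and AURKA were the 3 not called. Of 16 E2F, pocket protein and DREAM complex genes, 9 fell and 0 rose, among them E2F8 (-1.13), RBL1 (-0.91), RBL2 (-0.53) and TFDP1 (-0.49). The part of these genes in the decrease of the repair genes was not tested.

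**Figure D4:**
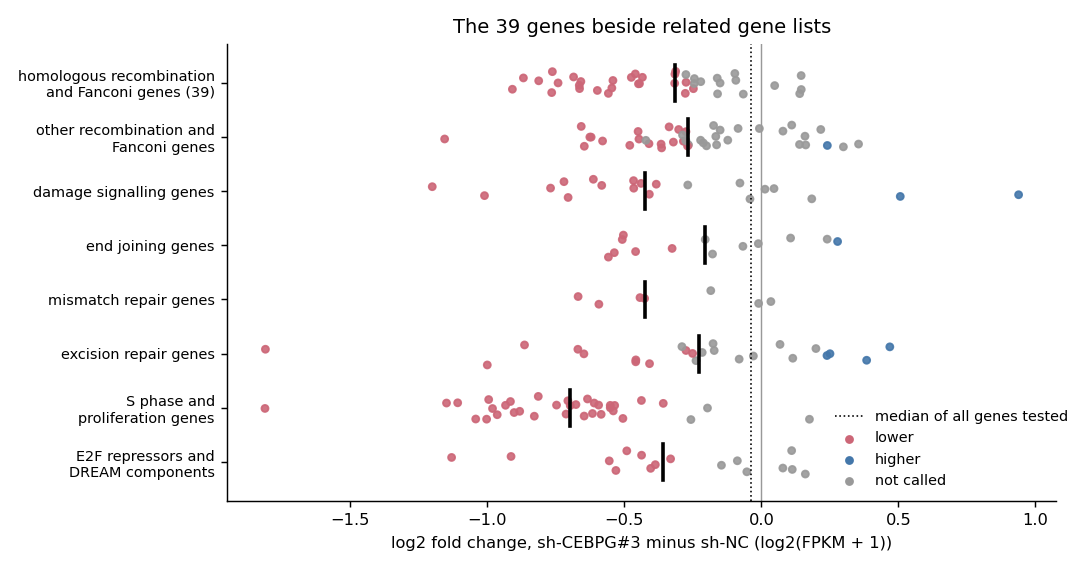
Log2 fold change (sh-CEBPG#3 minus sh-NC, on log2(FPKM + 1)) of the 39 genes and of the genes on 7 related lists, 1 point per gene, red where called lower, blue where called higher and grey where not called. Black bars mark list medians, from -0.20 for end joining genes to -0.70 for S phase and proliferation genes, and the dotted line the median of all genes tested.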

How the data were processed

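RNA of MV4-11 cells was sequenced by the authors after TruSeq library preparation, and reads were filtered and mapped with HISAT (HISAT2 2.0.5 and hg38 in the submitters' processing notes). The authors deposited FPKM values per RefSeq transcript. The program behind them and the annotation release are not given in the sources used here. Of 28780 rows, 199 have no value. Rows were summed per symbol, and log2(FPKM + 1) was tested with limma 3.58.1 in R 4.3.3 (lmFit, eBayes with a trend, two-sided, no block) in the 12142 genes whose mean FPKM reached 0.5, with Benjamini-Hochberg adjustment over all genes tested and 0.05 as the threshold. The fit was tested on simulated data. There fewer genes changed than were called here, and each by more than any member, so calls of changes this small were not tested. No count test was run on FPKM values, and without counts no interval of depth is given. Members and lists were chosen with earlier results of these data known. Values are given in full for the called members without overlap (at most 8 in each direction, by absolute fold change), and up to 4 genes per related list are named by adjusted p. Same-numbered libraries deviated together with r = 0.061 across genes. The alternatives were other pseudocounts, filters, scalings, no trend, the replicate block, the most abundant row per gene and each library left out. Values of some genes on these lists are not reported here, although the counts include them.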

Additional observations from a re-analysis of the deposited data

How the results depend on the processing

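The log2 fold changes of the 39 genes were recomputed under 13 alternatives each, except for RAD51B, which a stricter filter and its most abundant row leave untested. Of 505 values, 453 kept their direction and their side of 0.05. BRIP1, XRCC2, RAD50, EXO1, BLM, RMI1, EME1, FANCA, FANCG, FANCD2, FANCI and CHEK2 kept their call under all 13, and the other 13 called genes lost theirs at least once without reversing. With the most abundant row in place of the sum, 12 members were called lower against 25, and over all genes 1535 were lower and 1329 higher against 2884 and 2244. Rows of a gene varied more between libraries of a group than their sum in RBBP8 and CHEK1. RBBP8 reversed there (0.38 against -0.09, neither called). Applied to the limma fits, not to DESeq2 results, the threshold of the study left 0 members with the pseudocount of 1 FPKM. It left 1 (XRCC2) with 0.1 and 1 with 0.01, 2 combinations chosen after seeing the data. Without the filter 18 members were called lower, and 2232 of all genes. The median of the members was -0.49 with pseudocounts of 0.1 and -0.49 with 0.01, against -0.32. With the replicate block 22 members were called lower, and 2673 of all genes. PALB2 (adjusted p = 0.0609), RAD51C (adjusted p = 0.0876) and SLX4 (adjusted p = 0.0675) were lost. The numbers pair no samples by the labels, and r = 0.061 did not pair them. With a library left out, its group keeps 1, which is assumed to vary like the other libraries. The count of members lower was then 18 (without sh-CEBPG#3 replicate 2) to 23, that of members higher 0 to 1 (NBN, without sh-NC replicate 2), and the median -0.42 to -0.30. FANCL ranged from -0.047 to 0.14 and RMI2 from -0.20 to 0.069, uncalled throughout. CEBPG stayed between -0.87 and -0.70 over all alternatives. Low genes such as RAD51B and FANCM cannot be weighted by depth.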

Other observations

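Other repair pathways were read from lists chosen with earlier results known. Among all genes tested, 23.8% were called lower and 18.5% higher. Of 7 mismatch repair genes, 4 fell and 0 rose, with a median log2 fold change of -0.43. MSH6, a subunit of the main mismatch sensor, fell from 14.4 and 14.9 FPKM to 8.89 and 8.82 FPKM (-0.67, adjusted p = 0.000149 in limma). PMS1 fell by 0.43 on the log2 scale. Of 13 end joining genes tested, 6 fell and 1 rose, with a median of -0.20. PRKDC, the catalytic subunit of DNA-PK, fell from 51.6 and 53.9 FPKM to 37.1 and 35.0 FPKM (-0.54, adjusted p = 0.000318). PAXX (-0.56), RIF1 (-0.50) and SHLD2 (-0.46) also fell, and LIG4, the ligase of this pathway, rose (0.28, adjusted p = 0.0395).

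Of 24 excision repair genes, 10 fell (41.7%) and 4 rose, with a median of -0.23. The share that rose did not exceed the 18.5% called higher among all genes tested. RAD23B, a partner of the damage sensor XPC, rose from 36.0 and 37.9 FPKM to 44.2 and 43.3 FPKM (0.24, adjusted p = 0.0235). UNG (48.4% of the control level), FEN1 (-0.86) and LIG1 (-0.65), which also serve DNA replication, fell. The glycosylase OGG1 (0.38) and the gap-filling polymerase POLB (0.25) also rose.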
